A study of Mus musculus with 6 samples.

Results

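Heat shock proteins and cytosolic chaperones were followed in mouse liver as 42 genes named by symbol: the regulator Hsf1, the Hsp70, Hsp110 and small heat shock proteins, both forms of Hsp90, their co-chaperones, the mitochondrial chaperones, one collagen chaperone of the endoplasmic reticulum, and the subunits of the cytosolic chaperonin and of prefoldin. They were picked by name and role, and all 42 of the 18253 symbols of the series were listed in each of the 6 libraries. The livers came from C57BL/6 mice labelled as postnatal day 21. All of the animals had received alpha-naphthylisothiocyanate (ANIT), which injures bile duct cells and induces cholestasis, and 3 of the 6 libraries come from mice that were given celastrol as well, a triterpenoid of the plant Tripterygium wilfordii, over 5 days of treatment. Every group therefore carries ANIT, and no untreated or celastrol-only liver is among the samples. The labels give no doses and do not say that each library is its own animal, so the p-values refer to the spread between libraries only, which may be technical.

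Chaperones keep proteins folded. Heat shock factor 1 (HSF1) is held inactive by chaperones in unstressed cells and, when misfolded proteins accumulate, binds heat shock elements and switches on the inducible Hsp70 genes together with Hsp90 and many co-chaperones. Hsp70 binds exposed hydrophobic stretches and is driven by J-domain proteins and nucleotide exchange factors, Hsp90 matures kinases and steroid receptors with a set of co-chaperones, and the ring-shaped chaperonin folds actin and tubulin that prefoldin delivers. Celastrol has been described as an activator of HSF1 and as an inhibitor of Hsp90, which is why these genes are of interest here. Liver is a tissue of high protein synthesis with high constitutive Hsc70 and Hsp90.

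Heat shock elements are inverted repeats of GAA, and the promoter windows of the heat shock genes are shown because HSF1 acts through them. RefSeq windows of build GRCm38.p6, running from 250 bases before to 50 bases after a gene start, were matched by symbol for 34 of the 42 genes and searched for a 3-unit element, which is TTC, GAA and TTC or GAA, TTC and GAA in a row with any 2 bases (NN) between units (each order is the other's reverse complement, so both strands are covered, and hits may overlap). No window was available for Hsf1, Hspa8, Cryab, Hsp90aa1, Hsp90ab1, Hspa9, Cct4 and Pfdn1, which were therefore not searched. The 3-unit element was found for 4 of the 34 genes, Hspd1, Hspe1, Hsph1 and Chordc1, and for 0.662% of the 27025 symbols with a window. The 2-unit forms GAANNTTC and TTCNNGAA, which lie within the 3-unit element, were found for 16 of the 34 genes and for 17.0% of all symbols. Hspe1 and Hspd1, the mitochondrial Hsp10 and Hsp60 genes, stand head to head, and one element lies in the window of both. The stretches below carry the 3-unit element of Hspe1 and Hspd1 (chr1:55088053-55088082, plus strand), Chordc1 (chr9:18292260-18292288, plus strand) and Hsph1 (chr5:149636287-149636308, minus strand), and a 2-unit element upstream of the inducible genes Hspa1a (chr17:34972223-34972290, minus strand) and Hspa1b (chr17:34959305-34959372, minus strand). Capitals mark the element.
Hspe1 and Hspd1: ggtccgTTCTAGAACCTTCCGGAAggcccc
Chordc1: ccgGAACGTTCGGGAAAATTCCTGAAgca
Hsph1: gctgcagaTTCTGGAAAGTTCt
Hspa1a: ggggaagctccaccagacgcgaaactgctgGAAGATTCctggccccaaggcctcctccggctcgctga
Hspa1b: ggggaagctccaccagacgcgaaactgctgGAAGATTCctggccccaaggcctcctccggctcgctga
The printed stretches of Hspa1a and Hspa1b are the same letters, and their whole windows differ at 4 of 300 bases. A match describes letters and is not a measured binding site.

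Levels are in FPKM, a fragment count scaled by gene length and by library size, which allows genes to be compared with each other. Fold changes below are celastrol minus ANIT on the log2(FPKM + 1) scale, which understates changes of genes near 1 FPKM, and a gene was called at a limma adjusted p under 0.05 over all 10593 genes that reached 1 FPKM in at least 3 libraries. The estimated depth was 18980000 to 19840000 reads per library. The hepatocyte markers Alb, Apoa1, Ttr, Apob, Tat and Cps1 were listed in every library, with a summed level of 38630 to 50707 FPKM under ANIT alone and 12730 to 19254 FPKM under celastrol. Of these 6 markers only Alb was lower without overlap (29351 to 38656 against 5341 to 10051 FPKM), and the other 5 overlapped between the groups. Summed markers of neutrophils were 26.6 to 49.97 FPKM under ANIT alone and 62.4 to 88.4 FPKM under celastrol, and each of the 6 was higher without overlap. Summed markers of Kupffer cells, endothelial cells, stellate cells and lymphocytes overlapped between the groups, with Timd4 of the Kupffer cell list and Stab2 and Kdr of the endothelial list higher without overlap, and erythroid markers were lower with celastrol (46.9 to 211 against 216 to 407 FPKM). The cholangiocyte sum, most of it Spp1, overlapped as well, but 4 of its 6 markers were lower with celastrol without overlap: Krt19 (1.38 to 1.53 against 0.17 to 0.78 FPKM), Krt7 (0.43 to 0.78 against 0.06 to 0.42 FPKM), Epcam (0.51 to 0.75 against 0.25 to 0.50 FPKM) and Cftr (0.02 to 0.05 FPKM, and at 0 in all 3 celastrol libraries). The part of these shifts in the results below was not tested, and in whole liver fewer cells of a type and less RNA per cell cannot be told apart.

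Celastrol replicate 2 stood apart from the other celastrol libraries. The top 10 genes held 20.7% of its summed FPKM, against 33.2% and 31.5% in celastrol replicates 1 and 3 and 20.3% to 21.9% with ANIT. It was the only library in which all 4 skeletal muscle markers were listed (20.6 FPKM in sum, at most 0.12 FPKM elsewhere). Of the 41 chaperone genes tested, 35 (85.4%) were highest in replicate 2 among the celastrol libraries, as were 63.6% of all tested genes. Results are therefore also given without it.

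Most of the chaperone genes lay lower with celastrol: 39 of the 41 tested had a log2 fold change below 0, against 72.1% of all tested genes. Of the 41 genes 13 fell and none rose, while 20.6% of all tested genes fell and 4.41% rose. The 13 came from the chaperonin (5), the Hsp70 co-chaperones (3) and, with 1 each, Hsp110, Hsp90, the Hsp90 co-chaperones, the mitochondrial chaperones and prefoldin, and Hsf1, the inducible Hsp70 genes and Dnajb1 were not among them. The median log2 fold change was -0.36, against -0.17 for all tested genes. Groups did not overlap and celastrol was lower for 21 of the 41, against 36.6% of all genes, and for 1, Hspb8, celastrol was higher, against 8.35%. When the libraries were scaled by median ratios, which moved the median of all genes to -0.02, 5 of 40 (12.5%) fell, near the 11.0% of all genes, and 1 rose (7.57%), with a median of -0.21. Without celastrol replicate 2, 25 of 40 fell (32.0% of all genes) and none rose (4.56%). Without ANIT replicate 1 the count was 6 of 41 (14.6%, against 11.4% of all genes), without ANIT replicate 2 it was 4 of 40 (against 8.77% of all genes) and without ANIT replicate 3 it was 8 of 40 (against 13.8%). It was 4 without celastrol replicate 1 (9.76% against 8.81%) and 4 without celastrol replicate 3 (9.76% against 12.5%), so the share of chaperone genes that fell lay near or below that of all genes in several of these settings. Hspa4l, Hsp90ab1 and Cct3 fell under each of the 14 alternative settings, and the 10 other calls were lost under 2 to 10 of them.

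**Figure D1:**
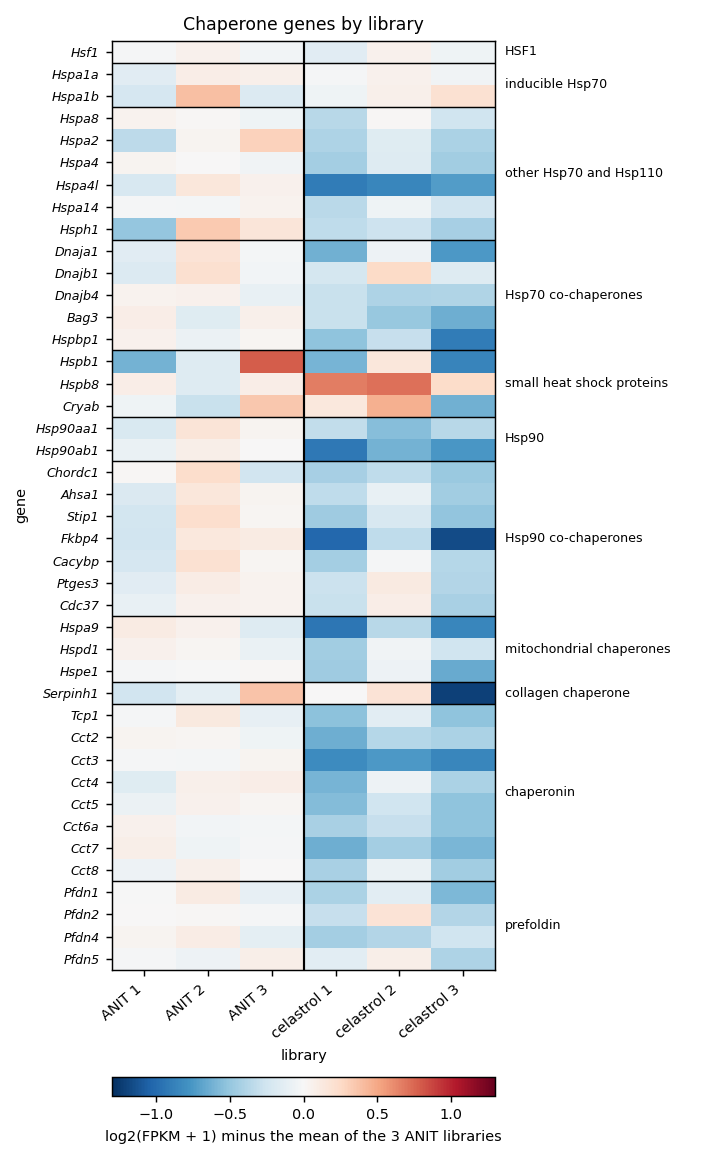
Each row is a chaperone gene and each column a library, and the colour gives log2(FPKM + 1) minus the mean of the 3 ANIT libraries, grouped by role. Celastrol replicates 1 and 3 are blue in most rows and celastrol replicate 2 is paler, while Hspb8 is red in all 3 celastrol libraries.

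The inducible Hsp70 genes were expressed at low levels in both groups and Hsf1 at a higher level, and none of them was called. Hsf1, which encodes the factor itself, measured 6.60, 7.01 and 6.51 FPKM in ANIT replicates 1, 2 and 3 and 5.98, 7.0 and 6.41 FPKM in celastrol replicates 1, 2 and 3. The groups overlap, and the log2 fold change was -0.05 with a 95% interval of -0.26 to 0.17 (SE 0.09, limma adjusted p = 0.73). Hspa1b, an inducible Hsp70, measured 1.74, 3.17 and 1.82 FPKM under ANIT alone and 2.07, 2.32 and 2.66 FPKM under celastrol, which differ by 0.07 on the log2 scale (interval -0.34 to 0.48, limma adjusted p = 0.79). Its highest value was in an ANIT library, and the celastrol values lie between the ANIT values. Hspa1a, its near copy on chromosome 17 (34969190 to 34972156 in mm10, with Hspa1b at 34956436 to 34959238), stayed below 1 FPKM, at 0.13, 0.33 and 0.31 FPKM under ANIT alone and 0.24, 0.30 and 0.21 FPKM under celastrol, or about 7.32 to 18.8 reads per library. It was below the abundance filter and did not pass without it (interval of the log2 fold change -0.19 to 0.18, limma adjusted p = 0.99). Of the 50-base stretches of the Hspa1a transcript 60.4% also occur in transcripts of other genes, nearly all in Hspa1b, so how reads were shared between the pair is uncertain.

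Dnajb1, a J-domain protein that is among the sharpest heat shock responders, measured 4.47, 6.16 and 5.03 FPKM under ANIT alone and 4.29, 6.36 and 4.52 FPKM under celastrol (log2 fold change -0.05, interval -0.41 to 0.32, limma adjusted p = 0.85). The groups overlap through their whole range. Hsph1, an Hsp110 that exchanges the nucleotide of Hsp70, measured 6.01, 11.63 and 10.12 FPKM under ANIT alone and 6.94, 7.25 and 6.39 FPKM under celastrol (log2 fold change -0.34, interval -0.83 to 0.15, limma adjusted p = 0.26). The ANIT libraries spread more widely than the celastrol libraries, and ANIT replicate 1 lies below all 3 celastrol values. For Hsf1 and Dnajb1 the sign of the difference turned under median-ratio scaling (0.11 and 0.10), after quantile normalization and without the 20 most abundant genes.

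Of the other Hsp70 and Hsp110 genes 1 of 6 fell, against 20.6% of all tested genes. Their levels ran from near those of the inducible pair (Hspa2) to the top of the whole set (Hspa8). Hspa8, the cognate Hsc70, was the most abundant gene of the 42, at 384.64, 378.10 and 358.63 FPKM under ANIT alone and 291.57, 377.12 and 311.36 FPKM under celastrol. Celastrol replicate 2 lies within the ANIT values and the other celastrol libraries below them, and the gene was not called (log2 fold change -0.20, interval -0.54 to 0.14, limma adjusted p = 0.34). Without replicate 2 the log2 fold change was -0.31 (limma adjusted p = 0.060). Of the 50-base stretches of its transcript, 73.2% are shared with other annotated genes, mostly the pseudogene Gm15459.

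Hspa4l, an Hsp110 family member that acts as a nucleotide exchange factor, fell from 4.10, 5.53 and 5.13 FPKM to 2.13, 2.27 and 2.57 FPKM. Every celastrol library lay below every ANIT library (log2 fold change -0.83, SE 0.12, limma adjusted p = 0.0041). Celastrol replicate 2 stood at 0.461 of the ANIT mean and the other 2 celastrol libraries at 0.478 of it, so the fall was as large in the library that stood apart. Hspa4l lies on chromosome 3 (40744495 to 40796103 in mm10, plus strand). Its relative Hspa4 had means of 23.8 ± 0.670 and 18.4 ± 2.23 FPKM (SD, n = 3 each) with groups that did not overlap, and was not called (limma adjusted p = 0.055; adjusted p = 0.010 without celastrol replicate 2). Hspa14, an Hsp70-like protein of the ribosome, measured 7.13 ± 0.220 and 6.00 ± 0.741 FPKM (limma adjusted p = 0.15). Hspa2, best known from the testis, measured 0.68 to 1.74 FPKM over the 6 libraries (limma adjusted p = 0.22).

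Of the 5 Hsp70 co-chaperones 3 fell (20.6% of all tested genes fell), each by a modest amount. Hspbp1, a nucleotide exchange factor that inhibits Hsp70, fell from 13.26, 11.99 and 12.91 FPKM to 8.53, 10.15 and 6.29 FPKM (log2 fold change -0.58, SE 0.16, limma adjusted p = 0.032). Bag3, which couples Hsp70 to selective autophagy, fell from 15.79, 13.20 and 15.59 FPKM to 11.97, 10.25 and 9.17 FPKM (log2 fold change -0.47, SE 0.13, limma adjusted p = 0.031). Dnajb4, a J-domain relative of Dnajb1, fell from 14.35, 14.45 and 12.95 FPKM to 11.18, 10.32 and 10.37 FPKM (log2 fold change -0.36, SE 0.09, limma adjusted p = 0.030). In all 3 the groups did not overlap. Under median-ratio scaling none of the 3 was called (adjusted p = 0.061 for Hspbp1, 0.15 for Bag3 and 0.21 for Dnajb4), and leaving out 1 library other than celastrol replicate 2 gave adjusted p of 0.063 to 0.087 for Hspbp1. Bag3 was not called without any 1 of the ANIT libraries or without celastrol replicate 3 (0.053 to 0.092), nor Dnajb4 without ANIT replicate 1, ANIT replicate 2, celastrol replicate 1 or celastrol replicate 3 (0.074 to 0.12). Dnaja1, an abundant J-domain partner of Hsc70, had means of 47.7 ± 5.6 and 34.5 ± 9.37 FPKM (SD, n = 3 each) and was called only without celastrol replicate 2 or when rescaled to TPM (limma adjusted p = 0.11 with all libraries and 0.0085 without that one).

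**Figure D2:**
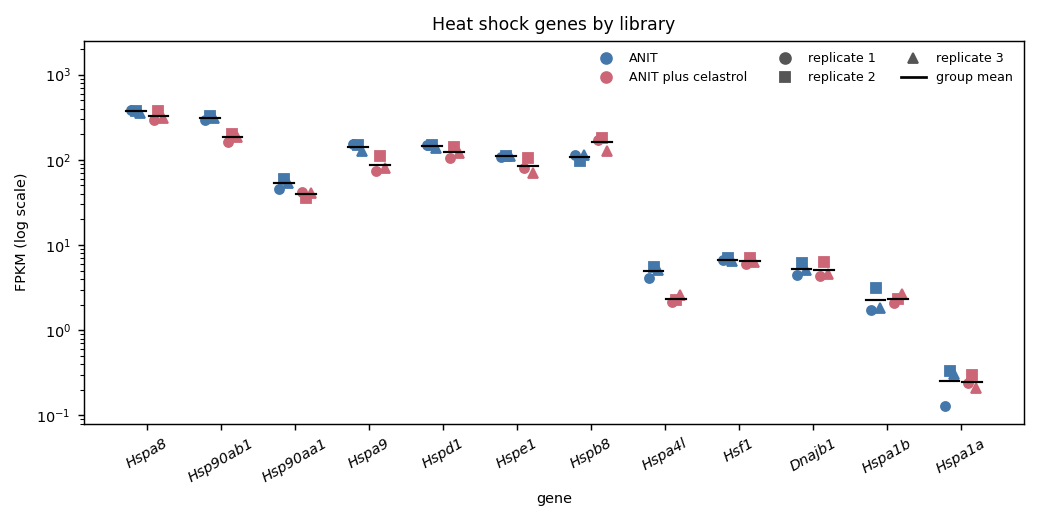
FPKM on a log axis is plotted for 12 chaperone genes, with ANIT libraries in blue, ANIT plus celastrol libraries in red, the replicate number as the marker shape and the group mean as a bar. Hspa8 and Hsp90ab1 lie between 162.49 and 384.64 FPKM, the inducible genes Hspa1b and Hspa1a below 3.2 FPKM, and the groups separate for Hsp90ab1, Hsp90aa1, Hspa9, Hspe1 and Hspa4l (celastrol lower) and Hspb8 (celastrol higher).

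Hsp90ab1, the constitutive cytosolic Hsp90, fell by more FPKM than any other of the 42 genes. It measured 293.32, 329.17 and 311.96 FPKM under ANIT alone and 162.49, 202.99 and 183.36 FPKM under celastrol, and the groups lay well apart. The log2 fold change was -0.77 (interval -1.09 to -0.44, SE 0.14, limma adjusted p = 0.0087), -0.85 without celastrol replicate 2 and -0.59 under median-ratio scaling. The gene lies on chromosome 17 (45567775 to 45573271 in mm10, minus strand), and 4.49% of the 50-base stretches of its transcript occur in other genes. Hsp90aa1, the stress-inducible form, measured 45.88, 59.61 and 54.07 FPKM under ANIT alone and 42.30, 35.82 and 40.90 FPKM under celastrol. Its groups also did not overlap, but it was not called (log2 fold change -0.41, interval -0.73 to -0.09, limma adjusted p = 0.065). Of its 50-base stretches 58.5% are shared, mostly with Gm12346.

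Ratios within a library were taken on FPKM + 1. Scaling between libraries hardly enters where both values are far above 1 FPKM. Hspa1a plus Hspa1b summed to only 1.87 to 3.50 FPKM, so their ratio to Hspa8 still depends in part on scaling. The log2 ratio of Hsp90aa1 to Hsp90ab1 was -2.65, -2.45 and -2.51 with ANIT and -1.92, -2.47 and -2.14 with celastrol, a difference of 0.36 (exact permutation p = 0.2, two-sided, adjusted p = 0.45 over the 3 ratios computed). The SD was 0.11 over the ANIT and 0.28 over the celastrol libraries, and celastrol replicate 2 lay among the ANIT values. The log2 ratio of Hspa1a plus Hspa1b to Hspa8 differed by 0.27 (exact permutation p = 0.3, adjusted p = 0.45), and that of Hspd1 to Hspe1 by 0.14 (exact permutation p = 0.6, adjusted p = 0.60). The smallest p that 3 against 3 libraries allow is 0.1.

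Of 7 Hsp90 co-chaperones 1 fell, against 20.6% of all tested genes. Fkbp4, the immunophilin of steroid receptor complexes, measured 48.47, 63.44 and 62.06 FPKM under ANIT alone and 27.83, 45.60 and 25.12 FPKM under celastrol (log2 fold change -0.84, SE 0.23, limma adjusted p = 0.035). Celastrol replicate 2 came close to the lowest ANIT library, and without it the log2 fold change was -1.09 (limma adjusted p = 0.0032). It was not called under median-ratio scaling (adjusted p = 0.051), nor when either of ANIT replicates 2 and 3 or of celastrol replicates 1 and 3 was left out (0.091 to 0.12). Cdc37, which loads kinases onto Hsp90, had means of 29.5 ± 1.78 and 25.7 ± 5.05 FPKM (limma adjusted p = 0.33). Stip1 (Hop), which bridges Hsp70 and Hsp90, had 25.8 ± 4.21 and 19.3 ± 2.40 FPKM (limma adjusted p = 0.090). Chordc1, a co-chaperone whose start holds overlapping heat shock elements, had 12.8 ± 2.24 and 9.24 ± 0.540 FPKM with groups that did not overlap (limma adjusted p = 0.055). The ATPase activator Ahsa1, the p23 gene Ptges3 and Cacybp had log2 fold changes of -0.29, -0.18 and -0.28 (limma adjusted p of 0.17, 0.42 and 0.21). All SDs are over n = 3. Without celastrol replicate 2, 4 of the 7 fell, Cdc37, Stip1 and Chordc1 with Fkbp4, against 32.0% of all tested genes.

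The small heat shock proteins did not move together. Hspb8, which works with Bag3, was the chaperone gene that lay highest with celastrol relative to ANIT, at 172.60, 178.81 and 128.31 FPKM against 115.13, 96.70 and 114.92 FPKM. Every celastrol library lay above every ANIT library, but the gene was just outside the threshold (log2 fold change 0.54, interval 0.15 to 0.93, SE 0.17, limma adjusted p = 0.051). It was called under median-ratio scaling (0.72, adjusted p = 0.016), after quantile normalization, without the 20 most abundant genes and without celastrol replicate 3. Hspb1 (Hsp25 in mouse) measured 3.87, 5.67 and 11.86 FPKM under ANIT alone and 3.90, 7.29 and 3.12 FPKM under celastrol (limma adjusted p = 0.48), and its ANIT values alone spanned a wide range. Of the 50-base stretches of its transcript 51.6% also occur in other genes, mostly the pseudogene Hsp25-ps1. Cryab, the alpha-B crystallin gene that muscle expresses strongly, measured 0.71 to 2.64 FPKM (limma adjusted p = 0.98). Its highest value was in celastrol replicate 2, the library with muscle transcripts. The next, 2.35 FPKM, was in ANIT replicate 3, where no muscle marker was listed, and the part of muscle transcripts was not tested. Serpinh1, the collagen chaperone Hsp47, measured 2.53, 2.82 and 4.42 FPKM under ANIT alone and 3.19, 3.74 and 0.80 FPKM under celastrol (limma adjusted p = 0.54). Its lowest value was in celastrol replicate 3. The sum of the 5 stellate cell markers, most of it Dcn, was 13.46 FPKM in that library. It was 15.82 FPKM in ANIT replicate 2, where Serpinh1 measured 2.82 FPKM. Dcn, Reln and Col1a1 were lowest in celastrol replicate 3 as well, and Lrat and Pdgfrb in ANIT replicate 2. The part of stellate cell content was not tested.

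The mitochondrial chaperones lay lower with celastrol, and Hspa9 fell. Hspa9, the mitochondrial Hsp70 that pulls proteins through the inner membrane, measured 154.28, 148.93 and 126.91 FPKM under ANIT alone and 73.92, 110.79 and 79.16 FPKM under celastrol. The groups did not overlap, with a fall by 0.72 on the log2 scale (SE 0.18, limma adjusted p = 0.026). Leaving out any 1 library but ANIT replicate 3 and celastrol replicate 2 ended the call (adjusted p of 0.070 to 0.10), as did leaving out the filter (0.051). Hspd1 (Hsp60) measured 150.90, 147.97 and 136.63 FPKM under ANIT alone and 105.90, 140.20 and 121.34 FPKM under celastrol (log2 fold change -0.25, interval -0.59 to 0.08, limma adjusted p = 0.23). Its groups overlap through celastrol replicate 2, and 44.8% of its 50-base stretches are shared, mostly with the pseudogene Hspd1-ps3. Hspe1 (Hsp10), the lid of the Hsp60 chamber, measured 109.07, 109.87 and 110.81 FPKM under ANIT alone and 79.70, 104.72 and 69.24 FPKM under celastrol (log2 fold change -0.40, limma adjusted p = 0.12), with celastrol replicate 2 just below the ANIT values. Of the 50-base stretches of the Hspe1 transcript 36.1% are shared, mostly with AC117239.2. Without celastrol replicate 2 all 3 were called, with log2 fold changes of -0.89, -0.35 and -0.56 for Hspa9, Hspd1 and Hspe1. Of all tested genes 32.0% fell in that setting. First exons of Hspd1 and Hspe1 overlap on opposite strands at the shared start, and whether the counting used strand is not stated in the labels.

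**Figure D3:**
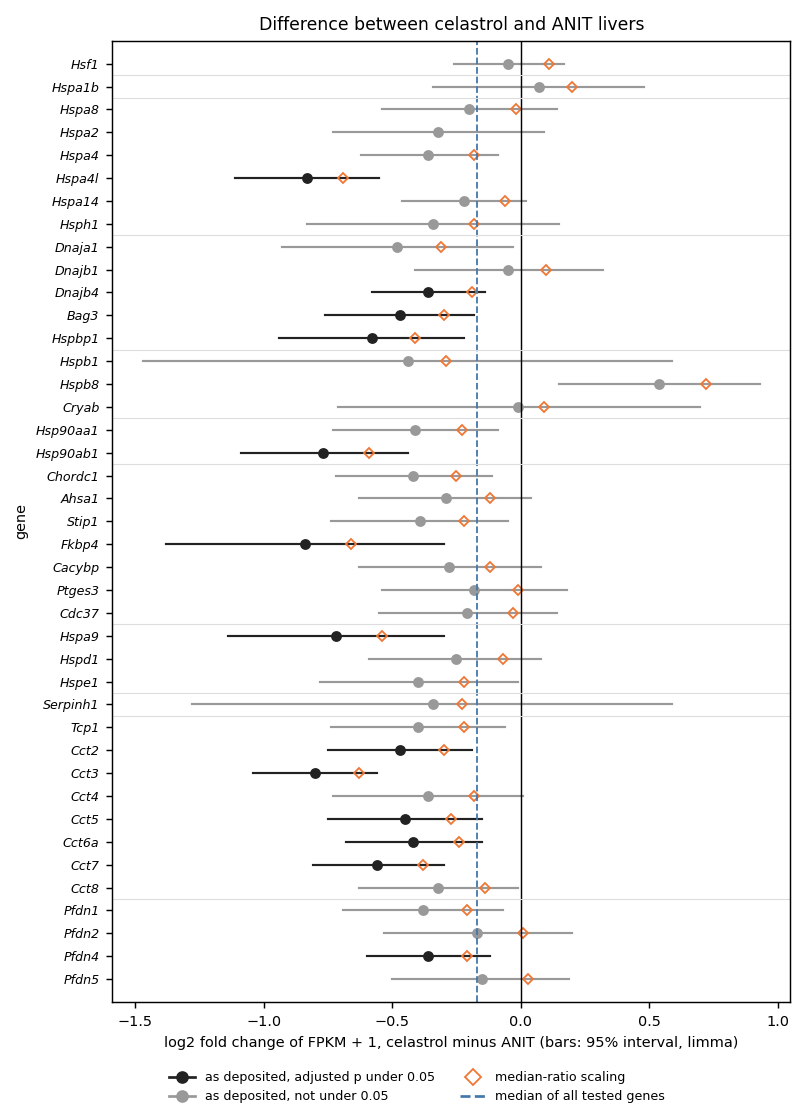
Circles show the log2 fold change of each tested chaperone gene on FPKM + 1 with its 95% interval, black where the limma adjusted p is under 0.05 and grey elsewhere, and open diamonds the value after median-ratio scaling. Nearly all circles lie below 0 and the dashed line marks the median of all tested genes at -0.17, with Hspb8 as the gene farthest to the right.

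The cytosolic chaperonin was the group with the most called members. Its 8 subunits, which assemble in equal numbers, all had log2 fold changes below 0 (-0.80 to -0.32, median -0.44). Of the 8, 5 fell, against 20.6% of all tested genes. The fold changes remained below 0 under each of the 14 alternatives, though for Cct8 only barely after quantile normalization (-0.0 when rounded). In that setting the median was -0.14 and 1 of 8 fell, against 8.99% of all tested genes. Under median-ratio scaling 2 of 8 fell (median -0.25), against 11.0% of all tested genes. Without celastrol replicate 2, 8 of 8 fell (median -0.53), and the share of all tested genes that fell rose to 32.0%. Cct3 measured 53.34, 52.66 and 55.29 FPKM under ANIT alone and 30.13, 31.60 and 29.34 FPKM under celastrol. The libraries of each group lay within a few FPKM of each other and the groups were far apart (log2 fold change -0.80, interval -1.04 to -0.56, SE 0.10, limma adjusted p = 0.0024). Cct3 is on chromosome 3 (88297116 to 88321767 in mm10, plus strand), and 2.13% of the 50-base stretches of its transcript occur in other genes. Cct7 measured 42.28, 38.34 and 39.55 FPKM under ANIT alone and 25.43, 29.14 and 26.25 FPKM under celastrol, again without overlap (log2 fold change -0.56, SE 0.11, limma adjusted p = 0.011; 0.057 without celastrol replicate 1).

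The other 3 that fell had smaller differences. Cct2 fell from 54.70, 54.50 and 51.40 FPKM to 34.01, 41.26 and 39.97 FPKM (log2 fold change -0.47, limma adjusted p = 0.027). Cct5 fell from 63.67, 69.70 and 68.47 FPKM to 45.18, 55.93 and 46.42 FPKM (log2 fold change -0.45, limma adjusted p = 0.039). Cct6a fell from 47.11, 44.26 and 44.38 FPKM to 33.55, 36.56 and 31.11 FPKM (log2 fold change -0.42, limma adjusted p = 0.032). Under median-ratio scaling none of these 3 was called (adjusted p = 0.086 for Cct2, 0.081 for Cct5 and 0.088 for Cct6a), nor when any 1 library other than celastrol replicate 2 was left out (0.052 to 0.15 over the 3). Tcp1, the alpha subunit, measured 51.09, 56.57 and 47.77 FPKM under ANIT alone and 35.50, 46.92 and 35.62 FPKM under celastrol (log2 fold change -0.40, limma adjusted p = 0.084). Cct4 and Cct8 had log2 fold changes of -0.36 and -0.32 (limma adjusted p of 0.13 and 0.11), and Cct4 was the 1 subunit whose groups overlapped. Exons of Tcp1, Cct7 and Cct8 overlap genes on the opposite strand (Mrpl18 and Acat3, Pradc1, and Usp16). Cct6a has no entry in the annotation used, so its overlaps and shared stretches were not checked.

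The subunit transcripts kept a narrow spread within each library. The most abundant subunit was Cct5 in all 6, and the highest to lowest subunit ratio was 1.73 to 1.91 with ANIT and 1.77 to 1.92 with celastrol. Set against the median of the other 7 subunits of the same library, Cct3 stood at 1.13, 1.19 and 1.25 with ANIT and at 0.90, 0.79 and 0.94 with celastrol. Cct3 thus changed its place among the subunits, from above to below their median, in all 3 celastrol libraries. Cct8 had relative levels of 0.79, 0.84 and 0.89 with ANIT and 0.93, 1.09 and 0.99 with celastrol, also without overlap, and the other 6 subunits overlapped. These relative levels were computed after the values were seen and are given without a test.

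**Figure D4:**
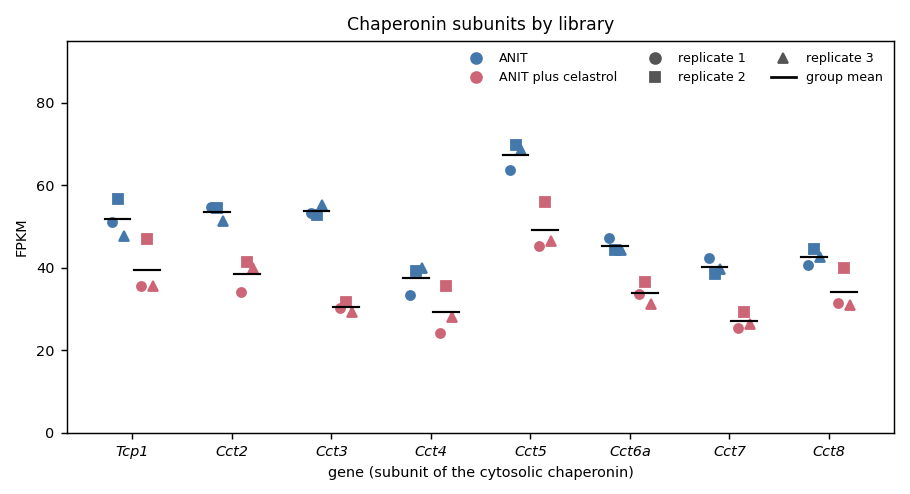
FPKM of the 8 chaperonin subunits is plotted by library, with ANIT in blue, ANIT plus celastrol in red, the replicate number as the marker shape and group means as bars. Celastrol means are lower for every subunit, and Cct3 drops from 53.8 to 30.4 FPKM with little spread.

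Prefoldin, the hexamer that hands nascent actin and tubulin to the chaperonin, was represented by 4 subunits. Of these 1 fell, against 20.6% of all tested genes. Pfdn4 fell from 4.87, 5.13 and 4.26 FPKM to 3.23, 3.41 and 3.81 FPKM (log2 fold change -0.36, SE 0.10, limma adjusted p = 0.041). Groups did not overlap, but the call held under only 4 of the 14 alternatives, and of the libraries only ANIT replicate 3 could be left out without losing it, and exons of Pfdn4 overlap Cyp24a1 on the opposite strand. Pfdn1 had means of 17.1 ± 1.34 and 13.04 ± 2.20 FPKM (limma adjusted p = 0.075), Pfdn2 of 29.2 ± 0.388 and 26.3 ± 5.95 FPKM (limma adjusted p = 0.46) and Pfdn5 of 62.6 ± 3.28 and 56.6 ± 9.40 FPKM (limma adjusted p = 0.47), with n = 3 each. Pfdn2 and Pfdn5 were as high in celastrol replicate 2 as with ANIT, and their sign turned under median-ratio scaling.

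A wider list of 75 chaperone genes and partners, written by role, gave 69 tested genes, of which 14 fell and 2 rose, with a median log2 fold change of -0.23. These shares are close to those of all tested genes (20.6% and 4.41%). Bag2, an inhibitor of the ubiquitin ligase CHIP, fell from 2.17, 1.94 and 2.59 FPKM to 0.42, 0.51 and 0.39 FPKM (log2 fold change -1.16, SE 0.12, limma adjusted p = 0.0012). It passed the filter only through the ANIT libraries, where it is high, and had no value when any 1 of them was left out. In the fit without a filter its adjusted p was 0.0029. Bag4, of the same family, moved the other way and rose from 3.54, 4.61 and 4.05 FPKM to 6.02, 7.14 and 5.41 FPKM (log2 fold change 0.50, SE 0.13, limma adjusted p = 0.026). Rpap3, the scaffold of an Hsp90 co-chaperone complex that assembles RNA polymerases, rose from 4.88, 4.54 and 4.72 FPKM to 11.12, 6.63 and 10.49 FPKM (log2 fold change 0.84, SE 0.17, limma adjusted p = 0.014). Celastrol replicate 2 was the lowest of the celastrol libraries for Rpap3. Rpap3 was not called without ANIT replicate 2 or celastrol replicate 1, and Bag4 was not called without ANIT replicate 1, ANIT replicate 3 or celastrol replicate 1.

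Among mitochondrial partners Lonp1, the protease of the matrix, fell from 73.04, 67.41 and 55.72 FPKM to 32.15, 45.85 and 34.15 FPKM (log2 fold change -0.80, limma adjusted p = 0.015). The disaggregase Clpb fell by 0.54 on the log2 scale (limma adjusted p = 0.016). Lonp1 was not called without ANIT replicate 1, ANIT replicate 2 or celastrol replicate 1 (adjusted p of 0.053 to 0.066), nor Clpb without any of these or celastrol replicate 3 (0.050 to 0.065). Falls were also found for Dnajc5, the cysteine string protein (-0.53, limma adjusted p = 0.0092), the myosin chaperone Unc45a (-0.53, adjusted p = 0.0077) and the AAA protein Ruvbl1 (-0.41, adjusted p = 0.020). Those in the tubulin and chaperonin group were Tbcel (-0.60, limma adjusted p = 0.0096), Tbce (-0.56, adjusted p = 0.022), Pdcl3 (-0.43, adjusted p = 0.023) and Tbcd (-0.34, adjusted p = 0.027). Under median-ratio scaling Unc45a, Ruvbl1, Pdcl3 and Tbcd were not called (adjusted p of 0.056, 0.066, 0.14 and 0.22). Ruvbl1 and Tbcd were also lost when any 1 library but celastrol replicate 2 was left out, and Tbce and Pdcl3 without ANIT replicate 1, ANIT replicate 2, celastrol replicate 1 or celastrol replicate 3. The remaining 4 that fell were Dnajb12, Dnajb14, Aarsd1 and Nudcd2, named after their values were seen. Under median-ratio scaling 6 of the 69 fell and 3 rose, against 11.0% and 7.57% of all tested genes. Without celastrol replicate 2, 25 fell and 4 rose, against 32.0% and 4.56% of all tested genes. When 1 other library was left out 3 to 8 fell and 0 to 2 rose, fewest falls without ANIT replicate 2 and no rise without celastrol replicate 1. In those settings 8.77% to 13.8% of all tested genes fell and 1.87% to 3.45% rose. The further heat shock factor genes Hsf2 and Hsf4 measured 5.81 ± 0.951 and 5.67 ± 0.795 FPKM and 2.18 ± 0.176 and 2.32 ± 0.397 FPKM under ANIT alone and celastrol (SD, n = 3 each), and neither was called (limma adjusted p of 0.90 and 0.75).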

How the data were processed

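RNA from frozen liver was sequenced in 3 ANIT and 3 ANIT plus celastrol libraries, grouped by their titles. The authors deposited FPKM, 1 table per library, per the file headers; HISAT2, featureCounts and build mm10 are named, without versions, per the submitters' processing notes. The labels name no annotation, gene lengths, strand setting or read length. A symbol not listed in a library counts as 0, and 2 duplicated symbols were left out. Depth was estimated from the steps between values of 0.1 to 1 FPKM of genes of 400 to 2500 bases; no counts were rebuilt.

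Genes with 1 FPKM in at least 3 libraries were analysed as log2(FPKM + 1) by limma (3.58.1, under R 4.3.3; trend, robust variance, group only), with Benjamini-Hochberg adjustment over all tested genes. The fit was also run on simulated data with independent noise and changes balanced between the directions. Those data held no library that stood apart and no shift of most genes, so they do not cover these features. Intervals are 95% intervals of limma. Coordinates and 50-base stretches come from GENCODE M21 (GRCm38, the same build as mm10). Members, lists and the rule for named genes (every called member, 14 members whatever their values, and up to 10 called genes of the wider list in each direction) were chosen with earlier results of these data known. Alternatives were a pseudocount of 0.1, no filter, median-ratio scaling, TPM, quantile normalization, the 20 most abundant genes left out, non-robust variance, a replicate block and each library left out.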

Additional observations from a re-analysis of the deposited data

How the results depend on the processing

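Of 41 tested chaperone genes, 31 turned sign under none of the 14 alternatives in which they were tested. Hspa2, 1 of the 31, was below the filter in several alternatives, median-ratio scaling among them, and has no value there. None of the 13 called genes was among the 10 that turned. All genes called numbered 2652 (467 higher, 2185 lower). The total was 4189 when rescaled to TPM and 1117 to 3810 when 1 library was left out, with 196 to 476 higher and 911 to 3334 lower. Higher and lower calls were 800 and 1163 under median-ratio scaling and 873 and 952 after quantile normalization, and lower calls 3781 with TPM. The 13 falls among the chaperone genes became 5 without the filter (11.9%, against 9.18% of all genes) and 5 under median-ratio scaling (12.5% against 11.0%). They became 4 after quantile normalization (9.76% against 8.99%) and 23 with TPM (56.1% against 32.7%). They numbered 4 to 25 when 1 library was left out, while 8.77% to 32.0% of all genes fell. In place of no rise there was 1, Hspb8, under median-ratio scaling (7.57% of all genes rose), after quantile normalization (8.24%) and without the 20 most abundant genes (5.29%). When 1 library was left out 0 to 1 rose, against 1.87% to 4.56% of all genes. In the wider list, 14 falls became 6 under median-ratio scaling (11.0% of all genes fell), 30 with TPM (32.7%) and 5 after quantile normalization (8.99%). When 1 library was left out there were 3 to 25 falls (8.77% to 32.0% of all genes) and 0 to 4 rises (1.87% to 4.56%). The 2 rises became 1 without the filter (2.26% of all genes rose) and 4 after quantile normalization (8.24%). The cause of these changes was not tested.

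Log2 fold changes turned sign as follows, none of them called. Under median-ratio scaling they were 0.11 for Hsf1, 0.10 for Dnajb1, 0.09 for Cryab, 0.01 for Pfdn2 and 0.03 for Pfdn5. After quantile normalization they were 0.15 for Hsf1, 0.12 for Dnajb1, 0.08 for Cryab, 0.02 for Ahsa1, 0.14 for Ptges3, 0.09 for Cdc37, 0.13 for Pfdn2 and 0.10 for Pfdn5. Without the 20 most abundant genes they were 0.02 for Hsf1, 0.01 for Dnajb1 and 0.03 for Cryab, and with TPM -0.02 for Hspa1b. With 1 library left out Hspa1b ranged from -0.04 to 0.27, Dnajb1 from -0.19 to 0.06, Cryab from -0.25 to 0.30 and Serpinh1 from -0.61 to 0.09.

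The labels do not say that replicate numbers pair the samples. Deviations of same-numbered libraries from their group means correlated at 0.149, 0.231 and -0.0917, and those of differently numbered libraries at -0.243 to 0.18. These few values cannot decide whether the samples are paired. With the replicate block, 12 chaperone genes fell (29.3%, against 19.9% of all genes) and none rose (against 4.52%). In that setting 2585 genes were called in all. The block lost Cct5, Cct6a and Pfdn4 (adjusted p of 0.051, 0.056 and 0.063) and gained Chordc1 and Pfdn1 (0.040 and 0.048). Hspa1a was tested only without the filter. At the estimated depth, genes below 1 FPKM rest on few reads.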
